A study of Homo sapiens with 6 samples.

Results

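Transcripts of 9 genes that mark the endometrial and wider Müllerian epithelial lineage were followed in Ishikawa cells, a line grown from a human endometrial adenocarcinoma. They are the transcription factor genes PAX8, SOX17, EMX2, MSX1, MSX2, MECOM and FOXA2, the secreted protein gene WFDC2 and the mucin gene MUC1. They were taken by symbol from the 60670 genes of the deposited table, and each symbol stood on 1 row. The treated cells received 5 µM penfluridol, a diphenylbutylpiperidine antipsychotic, and the control cells received its solvent DMSO, with 3 messenger RNA libraries in each group. Both groups were the same line, grown in the same medium, and no source used here gives the time of treatment. Whether the libraries of a group stem from separate cultures is not in the labels, so every p-value rests on the scatter of these libraries, part or all of which may be technical.

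The uterus, the oviducts and the upper vagina form from the Müllerian ducts, and several homeobox and paired-box factors of that period stay on in the adult epithelium. PAX8 is used by pathologists as a marker of Müllerian epithelium and of tumours that arise from it. In the mouse, SOX17 and FOXA2 are needed for uterine glands, EMX2 for the urogenital tract, and MSX1 and MSX2 for a uterus that receives the embryo. WFDC2, also called HE4, is a small secreted protein with a pair of whey acidic protein domains, and it is measured in serum in ovarian and endometrial cancer. MUC1 is a cell surface mucin of glandular epithelia, and MECOM encodes zinc finger transcription factors that include EVI1.

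Some 200-base stretches are shown, upstream of WFDC2, the gene of this set with the highest level, and of MSX1 and MSX2, close relatives of which MSX2 was listed at 0 throughout. Each runs from 250 to 51 bases before the RefSeq start (GRCh38.p14, plus strand), which keeps annotated exons out. Capitals mark matches on either strand to a GC box, spelled GGGCGG, to the CCAAT box, to a TATA box, spelled TATAAA, to a homeodomain core, spelled TAATT, and to a SOX core, spelled ACAAT. The WFDC2 stretch is chr20:45469503-45469702, the MSX1 stretch chr4:4859415-4859614 and the MSX2 stretch chr5:174724332-174724531.
WFDC2: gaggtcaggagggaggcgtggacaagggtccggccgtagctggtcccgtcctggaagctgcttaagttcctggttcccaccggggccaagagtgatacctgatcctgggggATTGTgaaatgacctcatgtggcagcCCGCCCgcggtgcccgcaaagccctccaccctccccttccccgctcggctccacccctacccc
MSX1: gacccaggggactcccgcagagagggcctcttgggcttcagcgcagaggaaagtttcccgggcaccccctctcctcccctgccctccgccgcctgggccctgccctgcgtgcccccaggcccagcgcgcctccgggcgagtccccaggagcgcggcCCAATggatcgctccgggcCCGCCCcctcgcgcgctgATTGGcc
MSX2: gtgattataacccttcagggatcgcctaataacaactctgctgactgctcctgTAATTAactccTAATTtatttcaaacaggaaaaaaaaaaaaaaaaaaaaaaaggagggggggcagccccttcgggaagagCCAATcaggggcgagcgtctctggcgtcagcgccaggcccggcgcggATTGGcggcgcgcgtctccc
The WFDC2 stretch held 1 GC box and 1 SOX core, the MSX1 stretch 1 GC box and 2 CCAAT boxes, and the MSX2 stretch 2 CCAAT boxes and 3 homeodomain cores, of which an adjacent pair overlaps. None of the 3 stretches held the TATA box. The 51 bases nearest the start were not searched, so this does not show whether the promoters lack it. Among the same window of 35116 RefSeq promoters, 35.0% held a GC box, 27.4% a CCAAT box, 7.63% a TATA box, 20.4% the homeodomain core and 21.2% the SOX core. G and C made up 75.5% of the MSX1 stretch and 52.0% of the MSX2 stretch, against a median of 57.5% over all promoters, and the WFDC2 stretch had 66.0%. These matches describe the letters alone.

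Expression is given as TPM, a transcript abundance divided by transcript length and scaled to a fixed total per library, so levels can be compared between genes. Read counts do not survive this step, so depth is unknown and intervals come from the scatter of libraries. A gene was tested where it averaged at least 1 TPM, which 12201 genes did. The test was limma on log2(TPM + 1), with p-values adjusted over all 12201 by the Benjamini-Hochberg method. An adjusted p under 0.05 made a call, and all fold changes are differences of log2(TPM + 1), smaller than the true change where a gene is low. Of all tested genes, 9.75% were called higher with penfluridol and 3.48% lower.

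The libraries differed in a way that the groups account for only in part. The 4037 tested genes with the lowest transcript GC content (28.7% to 47.4%) lay at a median of -0.52, -0.31 and -0.02 from their own mean on the log2 scale in penfluridol 1, 2 and 3, and at 0.34, 0.76 and -0.29 in DMSO 1, 2 and 3. DMSO 3 thus stood apart from the other DMSO libraries, and penfluridol 3 from the other penfluridol libraries. The genes of interest are therefore also given without DMSO 3 and after the trend with GC content and transcript length was taken out of each library. The median log2 fold change of these low-GC genes was -0.56, and that of the 4037 genes with the highest GC was 0.315. So the trend also differs between the groups, and its removal takes out that part as well. Treatment and library differences within the trend cannot be told apart. Without DMSO 3, 3953 of the 12201 tested genes were called, against 1615 with all 6 libraries. Markers were those of an epithelial line, and the lowest value of the keratin genes KRT8, KRT18 and KRT19 in any library was 436 TPM. Stromal markers were low, with VIM between 0.18 and 0.38 TPM and DCN, LUM and PDGFRB listed at 0 throughout. The highest of them were COL1A1, between 1.61 and 4.42 TPM, and HAND2, at up to 1.38 TPM. Of the leukocyte and endothelial markers, CD3E and CD163 were listed at 0, and PTPRC reached at most 0.05 TPM. PECAM1 reached at most 0.12 TPM, CDH5 0.14 TPM and VWF 0.82 TPM, the last in DMSO 3. CD68 had the highest means of these markers, 4.62 TPM with penfluridol and 0.723 TPM in DMSO, and was called higher with penfluridol.

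Across the 9 genes, levels spanned from a leading transcript of the cell to none detected. WFDC2 averaged 1888 ± 112 TPM with penfluridol and 3282 ± 404 TPM in DMSO (SD, n = 3 each, as in all means below). It was 0.189% of all TPM with penfluridol and 0.328% in DMSO, rank 85 and rank 57 among the tested genes. MSX1 averaged 135 ± 35.7 TPM with penfluridol and 153 ± 33.3 TPM in DMSO, and PAX8 60.7 ± 15.9 and 61.7 ± 6.60 TPM in the same order of groups. In each of the 6 libraries the order was WFDC2, MSX1, PAX8 and SOX17 from high to low, and the ranges of these genes over the 6 libraries did not overlap. EMX2, MUC1 and MECOM followed with overlapping ranges. EMX2 lay above MECOM in each of the 6 libraries, and the place of MUC1 between or beside them is not resolved. FOXA2 was listed at 0, 0.13 and 0.02 TPM with penfluridol and at 0, 0 and 0.05 TPM in DMSO, and MSX2 at 0 in all 6. The 7 other genes passed the filter and were tested.

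**Figure D1:**
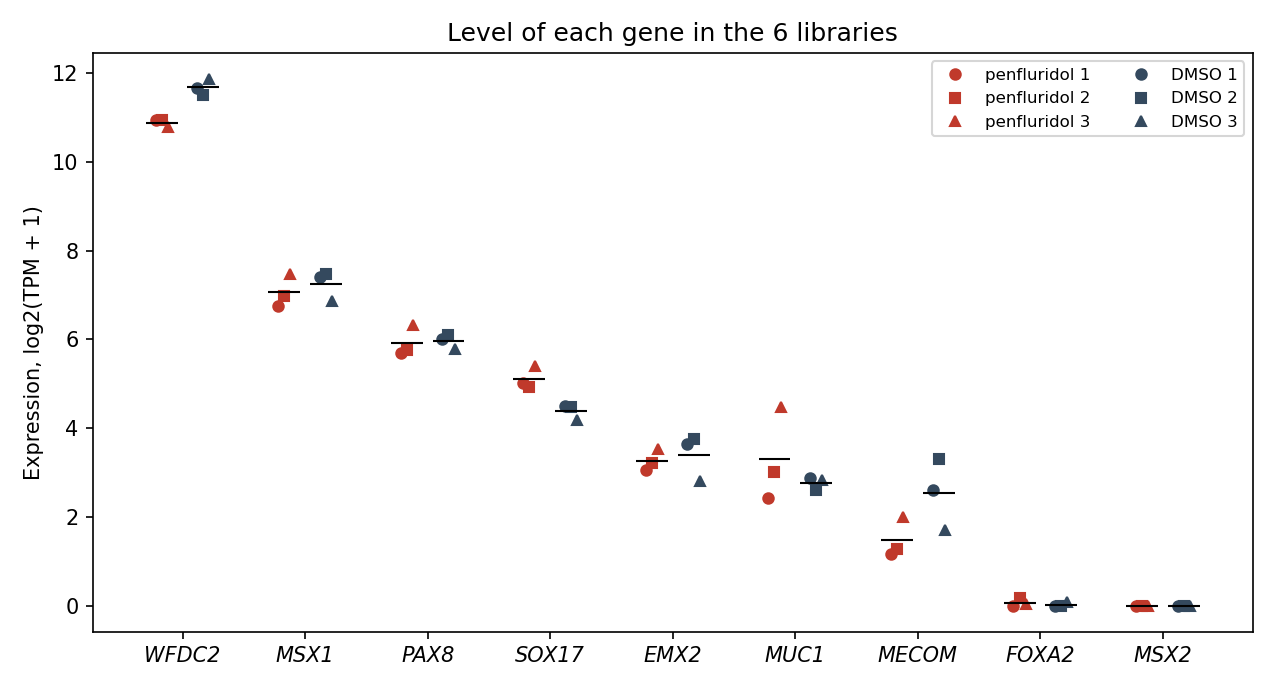
Expression of the 9 genes as log2(TPM + 1), 1 point per library with penfluridol left of DMSO, and bars at the mean of the 3 libraries. Levels run from WFDC2, at 1759 to 3709 TPM, down to FOXA2 and MSX2, which lie at or near 0 in all 6 libraries, and the groups are apart for WFDC2 and SOX17.

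Among the 7 tested genes WFDC2 fell, SOX17 rose, and the other 5 did not pass. The share of called genes over the whole table was 13.2%. Groups that do not overlap, as in WFDC2 and SOX17, were found in 37.0% of all tested genes, with penfluridol lower in 13.6% and higher in 23.3%. The median log2 fold change over all tested genes was -0.04.

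WFDC2 had 1951, 1954 and 1759 TPM in the penfluridol libraries, against 3231, 2906 and 3709 TPM in the DMSO libraries. All penfluridol values lay below all DMSO values, and the highest DMSO value was that of DMSO 3. The log2 fold change was -0.79 (SE 0.13, 95% interval -1.09 to -0.50, adjusted p = 0.0104, limma), and the ratio of the means was 0.575. After removal of the GC and length trend it was -1.15 (adjusted p = 0.000253), and without DMSO 3 it was -0.70 (adjusted p = 0.0111). The call was lost without penfluridol 2 (adjusted p = 0.0740), without DMSO 1 (0.0691) and under median-of-ratios scaling (log2 fold change -0.79, adjusted p = 0.0627). WFDC2 (ENSG00000101443) lies on chromosome 20 from 45469706 to 45481532 in GRCh38, on the plus strand, and its 7 annotated transcripts have a median length of 614 bases and 59.0% GC.

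SOX17, an HMG-box factor, had 31.4, 29.5 and 41.0 TPM with penfluridol, against 21.5, 21.2 and 17.2 TPM in DMSO. The groups did not overlap, with the highest value in penfluridol 3 and the lowest in DMSO 3. The means were 34.0 ± 6.18 TPM with penfluridol and 20.0 ± 2.38 TPM in DMSO, a log2 fold change of 0.73 (SE 0.17, 95% interval 0.32 to 1.14, adjusted p = 0.0355). The call held without DMSO 3 (log2 fold change 0.63, adjusted p = 0.0378), an omission that left 3953 called genes in the whole table. The SOX17 call was lost, at log2 fold changes of 0.59 to 0.82, without penfluridol 1 (0.0930), penfluridol 2 (0.105), penfluridol 3 (0.0801), DMSO 1 (0.110) or DMSO 2 (0.0749), omissions that each left 837 or fewer called genes in the whole table, against 1615 with all libraries. After removal of the GC and length trend the log2 fold change was 0.35 (adjusted p = 0.347), and with no filter on low TPM the adjusted p was 0.0738. SOX17 (ENSG00000164736) is a gene of 2954 bases on chromosome 8, from 54457935 to 54460888.

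**Figure D2:**
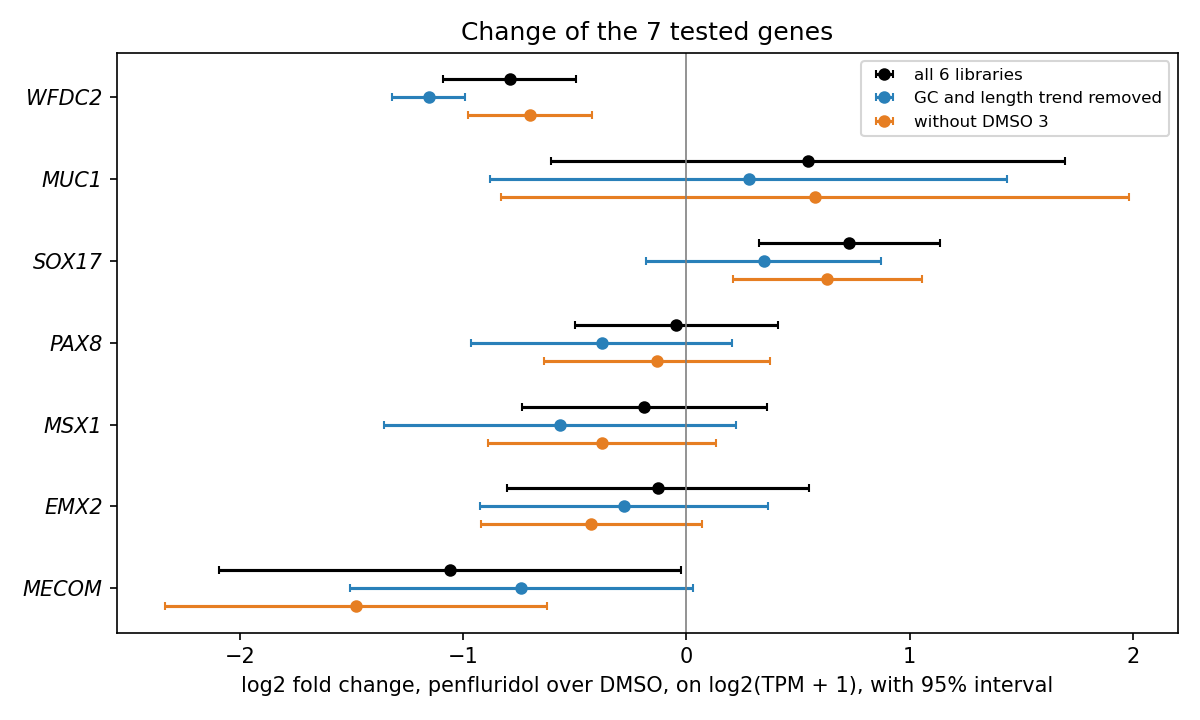
The log2 fold change of penfluridol over DMSO for the 7 tested genes, with 95% intervals, for all 6 libraries, after removal of the GC and length trend, and without DMSO 3. The interval of WFDC2 lies below 0 in all 3 settings, that of SOX17 reaches below 0 once the trend is removed, and that of MECOM lies farthest below 0 without DMSO 3.

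PAX8, the paired-box factor, had 50.4, 52.8 and 79.0 TPM with penfluridol, against 63.5, 67.2 and 54.3 TPM in DMSO. The groups overlapped, and penfluridol 3 held the highest value of all 6. The log2 fold change was -0.05 (SE 0.19, adjusted p = 0.887), with an interval from -0.50 to 0.41. PAX8 shares 685 of its 7400 exon bases with PAX8-AS1, a transcript of the opposite strand. PAX8-AS1 was at 3.03 ± 0.675 TPM with penfluridol and 4.79 ± 1.24 TPM in DMSO (adjusted p = 0.186). The sources used here do not say whether strand was used in counting, so reads of the shared stretch cannot be told apart.

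MSX1, a homeobox repressor that responds to BMP signals, had 107, 124 and 175 TPM with penfluridol, against 168, 177 and 115 TPM in DMSO. The groups overlapped almost fully, since penfluridol 3 was near DMSO 1 and 2, and DMSO 3 lay between penfluridol 1 and 2. Its log2 fold change was -0.19 (SE 0.23, interval -0.74 to 0.36, adjusted p = 0.589). It was -0.38 without DMSO 3 (adjusted p = 0.203) and -0.57 after removal of the GC and length trend (adjusted p = 0.310). No value above 0 was listed for MSX2, whose upstream stretch is shown beside that of MSX1.

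EMX2, a homeobox factor, had 7.36, 8.28 and 10.5 TPM with penfluridol, against 11.5, 12.4 and 5.95 TPM in DMSO. DMSO 3 was the lowest of all 6 libraries and DMSO 2 the highest, so the spread within DMSO covered the penfluridol values. Penfluridol over DMSO gave a log2 fold change of -0.13 (SE 0.29, interval -0.80 to 0.55, adjusted p = 0.778), and -0.43 without DMSO 3 (adjusted p = 0.152). EMX2OS, an antisense transcript that shares 255 of the 3262 exon bases of EMX2, was at 1.48 ± 0.411 TPM with penfluridol and 1.11 ± 0.468 TPM in DMSO (adjusted p = 0.534).

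MECOM had 1.25, 1.42 and 2.97 TPM with penfluridol, against 5.11, 8.87 and 2.24 TPM in DMSO. DMSO 3 lay below penfluridol 3, and the other DMSO libraries lay above all penfluridol libraries. The log2 fold change of -1.06 was the largest in size among the 7 genes and had the second largest error (SE 0.44, interval -2.09 to -0.02, adjusted p = 0.144). Without DMSO 3 MECOM passed the test, with a log2 fold change of -1.48 (adjusted p = 0.0256), and after removal of the GC and length trend it was at -0.74 (adjusted p = 0.187). The omission of DMSO 3 left 3953 of all 12201 tested genes called, against 1615 with all libraries. The median transcript of MECOM has 45.2% GC, the lowest of the 7 genes, against 51.7% to 59.7% for the others and a median of 51.8% over all tested genes. The deviations of MECOM followed the order of the low-GC genes in the 6 libraries, at -0.84, -0.73 and -0.02 in penfluridol 1, 2 and 3 and at 0.60, 1.30 and -0.31 in DMSO 1, 2 and 3. The processed pseudogene RPL22P1, at a mean of 106 TPM, lies within the span of MECOM and shares no exon base with it.

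MUC1 had 4.37, 7.11 and 21.4 TPM with penfluridol, against 6.30, 5.04 and 6.11 TPM in DMSO. Penfluridol 3 stood apart from the other 5 libraries, which lay between 4.37 and 7.11 TPM. The log2 fold change was 0.55 (SE 0.49, interval -0.60 to 1.69, adjusted p = 0.449), and without penfluridol 3 it was -0.04 (adjusted p = 0.915). The coefficient of variation of MUC1 was 83.4% with penfluridol and 11.7% in DMSO. That of WFDC2, the steadiest of the 7 genes with penfluridol, was 5.91% with penfluridol and 12.3% in DMSO.

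**Figure D3:**
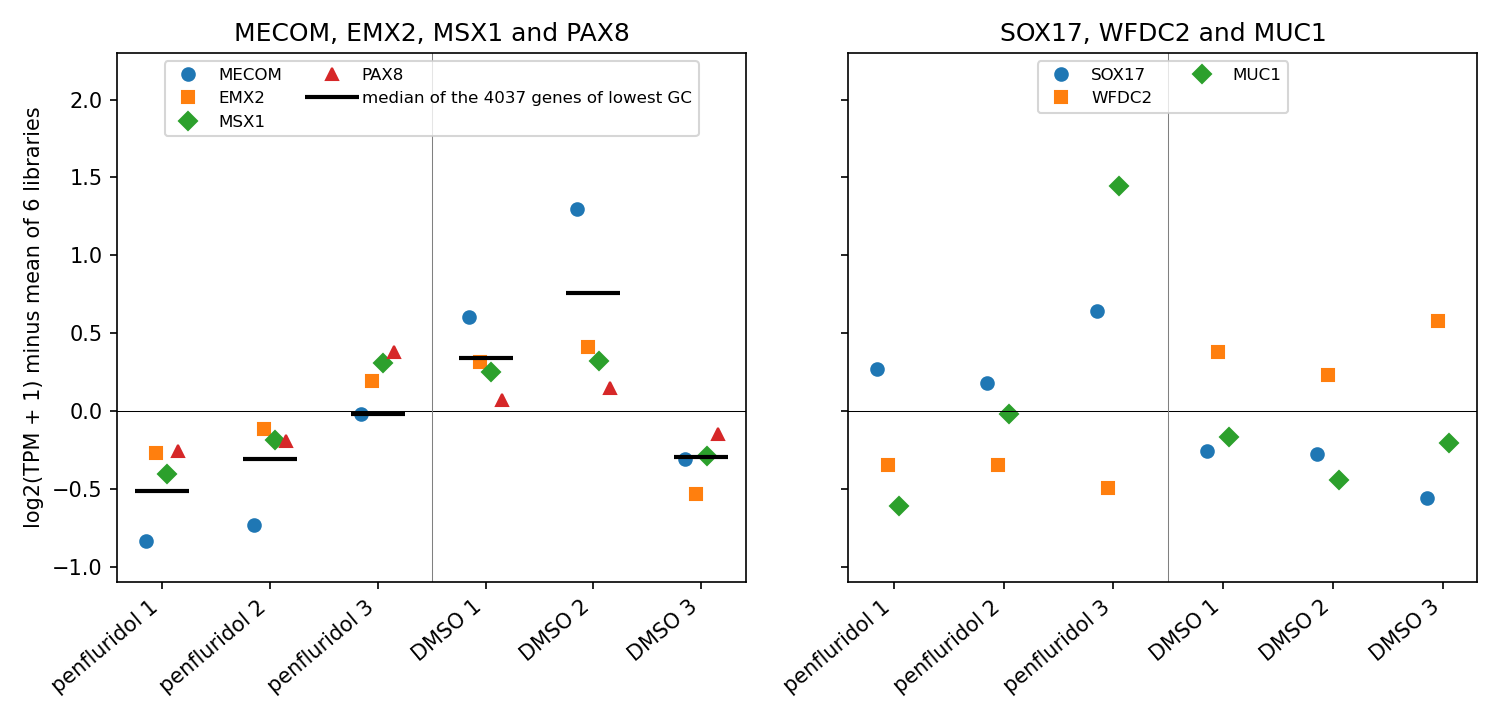
Deviation of log2(TPM + 1) from the gene's mean over the 6 libraries, by library, for MECOM, EMX2, MSX1 and PAX8 with the median of the 4037 tested genes of lowest GC (left) and for SOX17, WFDC2 and MUC1 (right). The 4 genes at left lie below 0 in DMSO 3, and 3 of them lie above 0 in penfluridol 3, while SOX17 and WFDC2 separate the groups in opposite directions. Of the genes at left, MECOM alone is among the genes of lowest GC.

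PAX8, MSX1 and EMX2 shared a profile over the libraries. Each lay below its own mean in penfluridol 1, penfluridol 2 and DMSO 3 and above it in penfluridol 3, DMSO 1 and DMSO 2. WFDC2 was the opposite of this in penfluridol 3, DMSO 3 and no other library. The median transcripts of PAX8, MSX1 and EMX2 have 57.1%, 59.7% and 51.7% GC, so none of these genes is among the 4037 of lowest GC. PAX8 and MSX1 fall in the GC range of the 4037 genes of highest GC. Those genes lay at medians of 0.14, 0.14 and 0.20 in penfluridol 1, 2 and 3 and at -0.15, -0.27 and -0.07 in DMSO 1, 2 and 3. The part of the GC trend in these profiles was not tested gene by gene. After its removal the log2 fold changes of the 3 genes were -0.38, -0.57 and -0.28 for PAX8, MSX1 and EMX2, with adjusted p-values of 0.353, 0.310 and 0.545.

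Protein-coding genes that averaged 5 TPM or more, 6919 besides the gene compared, were ranked by the Euclidean distance of their centred log2(TPM + 1) over the 6 libraries. KRT8, a keratin of simple epithelia, was closest to WFDC2 at a distance of 0.079, followed by GAS6, a ligand of the TAM receptor kinases, at 0.105 and the interferon-induced membrane protein gene IFITM3 at 0.117. KRT8 averaged 1109 ± 86.1 TPM with penfluridol and 1988 ± 232 TPM in DMSO (log2 fold change -0.84, adjusted p = 0.00903). GAS6 and IFITM3 had log2 fold changes of -0.72 and -0.75 (adjusted p = 0.0128 and 0.0144). KRT8, GAS6 and IFITM3 were picked for their likeness to WFDC2 in the same 6 libraries. Fold changes and calls near those of WFDC2 follow from that choice. Without DMSO 1 or penfluridol 2 none of these 3 kept its call, at 0.0611 to 0.0828, and IFITM3 also lost it without penfluridol 1 (0.0602) or penfluridol 3 (0.0538) and GAS6 without penfluridol 1 (0.0564). Median-of-ratios scaling also ended the calls of KRT8 (0.0527), GAS6 (0.0613) and IFITM3 (0.0657). Closest to SOX17 were FAM214B at 0.084, the methyl-CpG-binding protein gene MBD1 at 0.095 and DENND1C at 0.137. These distances describe 6 libraries and say nothing of shared control.

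Near WFDC2 on chromosome 20, the nearest tested genes were PIGT, 12772 bases before it, and WFDC3, 266412 bases after it, taken after their values were seen. PIGT, a subunit of the GPI transamidase, was at 89.8 ± 7.24 TPM with penfluridol and 77.0 ± 9.16 TPM in DMSO (adjusted p = 0.262). WFDC3 was at 3.57 ± 1.07 TPM with penfluridol and 2.75 ± 0.874 TPM in DMSO (adjusted p = 0.489). SLPI, a secreted protease inhibitor with the same kind of domain, was at 177 ± 4.34 TPM with penfluridol and 150 ± 9.37 TPM in DMSO (adjusted p = 0.140), and PI3, which encodes the related inhibitor elafin, rose to 5.11 ± 0.317 TPM with penfluridol, against 2.65 ± 0.457 TPM in DMSO (log2 fold change 0.75, adjusted p = 0.0487). The call of PI3 held with 1 of the 6 libraries left out in turn, DMSO 3, and was lost after removal of the GC and length trend (adjusted p = 0.0868), under median-of-ratios scaling (0.0591) and with no filter on low TPM (0.0956). The difference between WFDC2 and these genes was not tested.

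Of 37 other factors and signals of the Müllerian and uterine epithelium, 18 were tested, of which 1 rose, 2 fell and 15 did not pass, with a median log2 fold change of -0.34. Over all tested genes, 9.75% were called higher and 3.48% lower. FOXJ1, the factor of motile cilia, fell to 6.70 ± 0.527 TPM with penfluridol, against 25.8 ± 3.03 TPM in DMSO. Its log2 fold change was -1.80 (SE 0.16, adjusted p = 0.00170), and it was called with any 1 library left out and after removal of the GC and length trend (adjusted p = 0.000436). AXIN2, a feedback target of WNT signalling, fell by 0.93 on the log2 scale (adjusted p = 0.03995, lost with any library but DMSO 3 left out, at 0.0631 to 0.154, and with no filter on low TPM, at 0.101). OVOL1, an epithelial zinc finger factor, rose by 1.18 (adjusted p = 0.0142, or 0.0552 after removal of the trend), and its call was lost without DMSO 1, penfluridol 1 or penfluridol 2 (0.0568 to 0.0706). CTNNB1, which encodes beta-catenin, had the highest level among those that did not pass, at 41.0 ± 14.7 TPM with penfluridol and 98.9 ± 34.5 TPM in DMSO (log2 fold change -1.24, adjusted p = 0.0580). It was called lower after removal of the GC and length trend (-1.08, adjusted p = 0.0292), without DMSO 3 (-1.57, 0.0134), under median-of-ratios scaling (0.0238) and under a filter of 5 TPM (0.0426).

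Transcripts of the steroid receptors stayed below 1 TPM in every library. PGR was at no more than 0.07 TPM, and ESR1 was at 0 in all libraries but penfluridol 3, where it was at 0.33 TPM. The highest value was 0.79 TPM, that of NR3C1 in DMSO 2. Of 12 receptors and coregulators 4 were tested, of which 1 fell and 3 did not pass, against 13.2% called over all tested genes. PGRMC1, a heme-binding membrane protein, fell by 1.63 (adjusted p = 0.0332, lost with any library but DMSO 3 left out and with no filter on low TPM, at 0.0740 to 0.138). Its relative PGRMC2, the most abundant that did not pass, was at 29.9 ± 6.67 TPM with penfluridol and 23.1 ± 6.38 TPM in DMSO (log2 fold change 0.37, adjusted p = 0.314), and was called higher after removal of the GC and length trend (0.89, adjusted p = 0.00845). Of 21 genes around BMP signals and the DLX factors 7 were tested and none passed limma's test, with 0 at an unadjusted p under 0.05. The most abundant of them was DLX5, a homeobox factor, at 4.71 ± 0.390 TPM with penfluridol and 6.05 ± 1.60 TPM in DMSO.

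Of 32 other secreted and surface proteins of these epithelia 23 were tested, of which 4 rose, 1 fell and 18 did not pass, with a median log2 fold change of 0.11. The shares over all tested genes were 9.75% higher and 3.48% lower. SPINT2, a Kunitz inhibitor of membrane serine proteases, rose to 734 ± 22.2 TPM with penfluridol, against 450 ± 22.5 TPM in DMSO (log2 fold change 0.71, adjusted p = 0.00621, or 0.0575 after removal of the GC and length trend). LCN2, an iron-siderophore carrier, rose to 236 ± 3.31 TPM with penfluridol, against 141 ± 20.9 TPM in DMSO (log2 fold change 0.75, adjusted p = 0.0141, or 0.0161 after removal of the trend and 0.0539 under median-of-ratios scaling). LIF, a cytokine needed for implantation in the mouse, rose to 2.71 ± 0.455 TPM with penfluridol, against 0.973 ± 0.180 TPM in DMSO (adjusted p = 0.0383, or 0.206 after removal of the trend). DKK1, a secreted WNT antagonist, fell to 0.293 ± 0.210 TPM with penfluridol, against 2.62 ± 1.31 TPM in DMSO (adjusted p = 0.0295). SPINT2 was called with any 1 library left out except penfluridol 2 (0.0593), LCN2 with any left out except DMSO 1, penfluridol 1 and penfluridol 2 (0.0594 to 0.0904), and LIF and DKK1 when DMSO 3 was left out and in no other omission (0.0787 to 0.136 and 0.0507 to 0.0979). LIF and DKK1 also lost their calls with no filter on low TPM (0.107 and 0.0772). SPINT1 was the most abundant that did not pass, at 183 ± 14.7 TPM with penfluridol and 155 ± 22.8 TPM in DMSO.

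All 10 epithelial markers were tested, of which the claudin genes CLDN7 and CLDN3 rose, KRT8 fell and 7 did not pass. Of all tested genes, 13.2% were called in either direction. CLDN7 rose to 409 ± 12.2 TPM with penfluridol, against 209 ± 26.4 TPM in DMSO (log2 fold change 0.97, adjusted p = 0.00488). CLDN3 had a log2 fold change of 0.76 (adjusted p = 0.0224, or 0.0541 after removal of the GC and length trend, 0.0779 under median-of-ratios scaling and 0.0558 with no filter, and called without DMSO 3 or penfluridol 3 alone among the omissions). KRT18, the most abundant that did not pass, was at 1045 ± 128 TPM with penfluridol and 1492 ± 265 TPM in DMSO (log2 fold change -0.50, adjusted p = 0.0843), and was called lower after removal of the trend (-0.84, adjusted p = 0.00160). The summed level of the 10 markers was 3388 to 3889 TPM with penfluridol and 4353 to 5506 TPM in DMSO. Most of it was KRT8, KRT18 and KRT19, at means of 1988, 1492 and 686 TPM in DMSO. The means of these keratins, EPCAM and ESRP1 were lower with penfluridol, and those of CLDN3, CLDN4, CLDN7, ESRP2 and CDH1 were higher. The sum thus does not stand for all markers, and its part in the fall of WFDC2 was not tested. In bulk RNA, fewer cells of a kind and less RNA per cell cannot be told apart. CD68, a lysosomal membrane protein common in macrophages, rose to 4.62 ± 0.210 TPM with penfluridol, against 0.723 ± 0.332 TPM in DMSO (adjusted p = 0.00653), in libraries where CD163 was at 0.

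**Figure D4:**
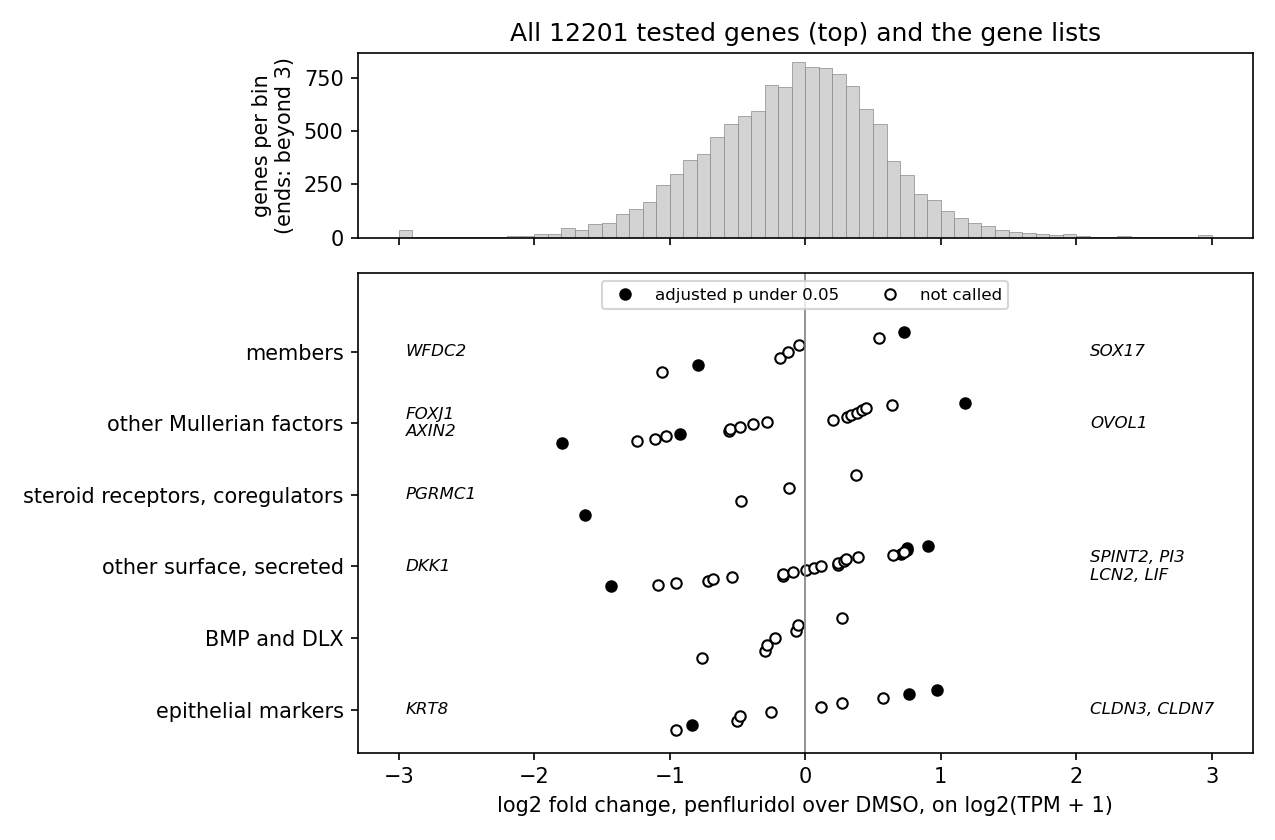
Numbers of tested genes by log2 fold change of penfluridol over DMSO (top, with values beyond 3 put in the end bins), and the fold change of each tested gene in the 9-gene set and in 5 other lists (bottom). Filled points passed the test and are named at the side to which they moved; WFDC2 and SOX17 lie within the bulk of all genes, and FOXJ1, at -1.80, is the lowest point shown.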

How the data were processed

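Messenger RNA libraries were made with a SMARTer kit (labels' protocols). The deposited values are TPM, a unit read from the values, and are rounded to 2 decimals. Over the genes listed they sum to 994165 to 997207 per library. Per the submitters' processing notes, fastp, RSEM and GRCh38.p13 were used. No version, aligner or gene annotation is given in the sources used here. There were 0 columns of other samples, and 1 blank line was left out.

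Columns were matched to samples by title. limma 3.58.1 (R 4.3.3, variance trend, treatment alone) was fitted on log2(TPM + 1). The same fit was run on simulated data in which genes were drawn independently and no GC trend was put in. That run therefore says nothing of how the trend affects the calls. GENCODE 29 (GRCh38) gave positions, and GC content and length as medians over transcripts, for 58452 identifiers and 99.3% of tested genes, and RefSeq gave promoters. The GC and length trend was fitted with natural splines of 5 degrees of freedom. Alternatives also covered the pseudocount, filters, scaling, the replicate block and omission of each library.

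The text names the 9 genes, up to 4 called genes per list by smallest p, the most abundant uncalled one, antisense overlaps and nearest profiles. Others were named after their values were seen. One gene of these lists is not reported here. In lists not described, limma called 0 of 2 paralogs, 0 of 1 stromal marker (COL1A1) and 0 of 3 transcripts listed as antisense, with 0 at an unadjusted p under 0.05. One of these, LINC01833, does not overlap any of the 9 genes. Members and lists were chosen with earlier results of these data known.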

Additional observations from a re-analysis of the deposited data

How the results depend on the processing

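The fall of WFDC2 and the rise of SOX17 kept their direction under all 12 alternatives, with log2 fold changes of -1.15 to -0.70 and 0.35 to 0.82. Since the groups of both genes do not overlap, omission of a library or another pseudocount could not reverse them. The filters and the replicate block leave the estimate as it is. Direction could thus have changed under median-of-ratios scaling and removal of the GC and length trend alone. The numbers of calls were not stable. In all, 1615 genes were called, against 996 with no filter on low TPM and 237 to 3953 with 1 library left out, the highest without DMSO 3 and the lowest without penfluridol 2. Of the calls 73.7% were higher, against 58.0% under median-of-ratios scaling and 44.8% after removal of the GC and length trend. Of the 9 genes 2 were called, against 1 with no filter on low TPM, 1 under median-of-ratios scaling, 1 after removal of the GC and length trend, and 0 to 3 with 1 library left out. The causes were not tested. With 1 library left out, PAX8 ranged from -0.247 to 0.072, EMX2 from -0.426 to 0.047 and MUC1 from -0.042 to 0.987, so their direction is not settled, and none of them was called in limma. MECOM could not be fitted under the stricter filter (5 TPM or more in 3 libraries), and MSX2 and FOXA2 gave no tested value; with no filter FOXA2 had a log2 fold change of 0.04 (adjusted p = 0.640). The labels do not say whether the replicate numbers pair the libraries. Deviations of same-numbered libraries from their group means correlated at -0.01, -0.01 and -0.35. These values cannot settle the question, since the deviations also carry the GC trend of each library. With the number as a replicate block, 74 genes and 0 of the 9 were called (2 of the 9 at an unadjusted p under 0.05), and WFDC2 had an adjusted p of 0.114 and SOX17 of 0.171. Depth is unknown, so values near 0 cannot be given a limit.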
